A study of Mus musculus with 6 samples.

Results

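A set of 9 genes of the type I interferon receptor and its JAK, STAT and SOCS proteins was compared between control and PGAM5 KD macrophages. They were the receptor chains Ifnar1 and Ifnar2, the kinases Jak1, Jak2 and Tyk2, the transcription factors Stat2 and Stat3, and the inhibitors Socs1 and Socs3, chosen by symbol in the GENCODE M21 annotation of GRCm38. They are 9 of the 54532 genes with a deposited value, and all 9 were among the 10540 genes that passed the filter on low values, a mean of at least 1 FPKM (fragments relative to exon length and sequencing depth) over the 6 libraries. The choice of the 9 genes was made with earlier results of these data known. RNA-seq was performed on 3 control and 3 PGAM5 KD libraries. The cells were iBMDMs, macrophages grown from bone marrow of WT mice and immortalized by retroviruses carrying v-raf and v-myc. The control line carried a control shRNA and the PGAM5 KD line an shRNA against Pgam5, both delivered by lentivirus, and both lines had received LPS at 100 ng/ml for 4 hours. PGAM5 is a phosphatase of mitochondria. Each group is an shRNA line, so the shRNA, the line and the loss of PGAM5 cannot be told apart, and without untreated libraries the values are levels after LPS and not an induction. The labels do not say whether replicates were separate cultures, so p-values measure only the spread between these libraries, which may be technical.

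Type I interferons bind a receptor made of IFNAR1 and IFNAR2, to which TYK2 and JAK1 are attached. The kinases phosphorylate STAT proteins, and STAT2 takes part with IRF9 in ISGF3, the factor that switches on interferon-induced genes at a DNA element called ISRE. IL-6, IL-10, LIF, IL-27 and G-CSF act through related receptors, several of which use JAK1, JAK2 or TYK2, and activate STAT3, which binds GAS elements. SOCS1 and SOCS3 are induced by STATs and inhibit the same kinases and receptors. LPS makes macrophages release several of these cytokines, so that the pathway runs as a second wave after TLR4.

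The knockdown was checked first. Pgam5 was at 17.1, 13.0 and 13.4 FPKM in control libraries and at 4.33, 5.75 and 4.53 FPKM in PGAM5 KD libraries, so the groups did not overlap. It fell by 1.40 on the log2(FPKM + 1) scale (SE 0.13, limma adjusted p = 0.000358). A lincRNA on the other strand, Gm26718, covers 58.1% of the Pgam5 exons and was listed at 0. The recovered depth ran from 18163465 to 24388917 fragments per library. Of 9 macrophage markers, 8 were above 1 FPKM, with a summed level of 2977 to 3062 FPKM in control and 2689 to 2717 FPKM in PGAM5 KD libraries, and Mertk was at 0. The lower sum in PGAM5 KD libraries moved with the groups, and its part in the results was not tested. Of the markers of other cells, 0 of 8 neutrophil, 0 of 7 fibroblast, 0 of 8 lymphocyte and 0 of 5 dendritic cell genes reached 1 FPKM, and 6, 5, 5 and 2 of them were at 0 in all libraries. Their summed levels were at most 0.568, 0.0168, 0.211 and 0.613 FPKM. In such bulk RNA, fewer cells that express a gene and less of its RNA per cell cannot be told apart.

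The promoters of the genes were read for the elements that STATs and ISGF3 bind. RefSeq (GRCm38.p6) gave 1 window for each of the 9 genes, 250 bases before to 50 bases after an annotated start, written 5′ to 3′ on the strand of the gene. The windows of Stat2, Socs1 and Socs3 are shown because they hold such letters in genes that differ in what their RNA did. Capitals mark TTCNNNGAA, the letters of a GAS, or GAAA, any 2 bases and GAAA on either strand, the core letters of an ISRE.
Stat2, chr10:128270248-128270547, + strand: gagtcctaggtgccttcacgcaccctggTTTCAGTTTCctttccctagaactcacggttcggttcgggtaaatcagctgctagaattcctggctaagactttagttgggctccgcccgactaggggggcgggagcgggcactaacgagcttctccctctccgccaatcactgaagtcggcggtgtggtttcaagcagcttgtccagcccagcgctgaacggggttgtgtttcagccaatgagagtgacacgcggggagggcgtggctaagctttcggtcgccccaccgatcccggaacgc
Socs1, chr16:10785487-10785786, − strand: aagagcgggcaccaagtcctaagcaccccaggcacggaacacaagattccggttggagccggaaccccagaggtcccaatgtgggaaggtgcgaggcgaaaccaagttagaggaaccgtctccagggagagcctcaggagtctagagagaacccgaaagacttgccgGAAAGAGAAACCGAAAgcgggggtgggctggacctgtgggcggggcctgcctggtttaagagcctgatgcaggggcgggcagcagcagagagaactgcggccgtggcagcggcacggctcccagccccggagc
Socs3, chr11:117969317-117969616, − strand: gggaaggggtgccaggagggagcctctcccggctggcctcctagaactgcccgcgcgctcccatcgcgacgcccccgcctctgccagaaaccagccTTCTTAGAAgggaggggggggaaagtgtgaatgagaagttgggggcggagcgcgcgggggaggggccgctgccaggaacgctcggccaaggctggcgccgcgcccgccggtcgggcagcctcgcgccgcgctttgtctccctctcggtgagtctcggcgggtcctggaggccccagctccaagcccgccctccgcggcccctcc
The Stat2 window held an ISRE core on the opposite strand, read as TTTCAGTTTC, 222 bases before the start. The Socs1 window held 2 overlapping ISRE cores, GAAAGAGAAA and GAAACCGAAA, which began 83 and 77 bases before the start. The Socs3 window held the GAS letters TTCTTAGAA 154 bases before the start. The GENCODE gene of Socs3 extends upstream past this window, to position 117970047, so that start lies inside the annotated gene. The start that RefSeq gives for Socs1 is that of the GENCODE coding transcript, whereas the coding transcript begins 78 bases downstream of it for Stat2 and 180 bases downstream for Socs3.

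GAS letters stood in 3 of the 9 windows and ISRE letters in 2, while 8.30% and 3.44% of all 32851 RefSeq promoter windows held them. Besides Socs3, both receptor genes held GAS letters, TTCACGGAA beginning 5 bases before the start in Ifnar1 and TTCCTGGAA beginning 214 bases before it in Ifnar2. The windows of Jak1, Jak2, Tyk2 and Stat3 held neither motif. A match is a description of letters and not a site of binding. With the values given next, Socs3 with a GAS and Stat2 with an ISRE core rose, whereas Ifnar1, Ifnar2 and Socs1 held a match without passing the test, and Jak2 and Stat3 rose without a match.

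Of the 9 genes, 4 rose in PGAM5 KD cells at a limma adjusted p under 0.05 (Jak2, Stat2, Stat3 and Socs3) and none fell, while 31.7% of all 10540 tested genes passed the test in either direction and 16.8% passed it as higher. Socs3 also had a log2 fold change above 1, as 0.787% of the tested genes did in that direction. The libraries of the groups did not overlap for 5 of the genes, the same 4 and Tyk2, beside 47.1% of the tested genes. The median log2 fold change was 0.21 over the 9 genes and 0.01 over all tested genes. Of all genes past the test, 1771 were higher and 1575 lower, a share higher of 52.9%, and after scaling each library to TPM 1088 were higher and 2282 lower, a share of 32.3%. Summed over all genes, the FPKM of a control library was at most 304889 and that of a PGAM5 KD library at least 317936, and TPM makes these sums equal.

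**Figure D1:**
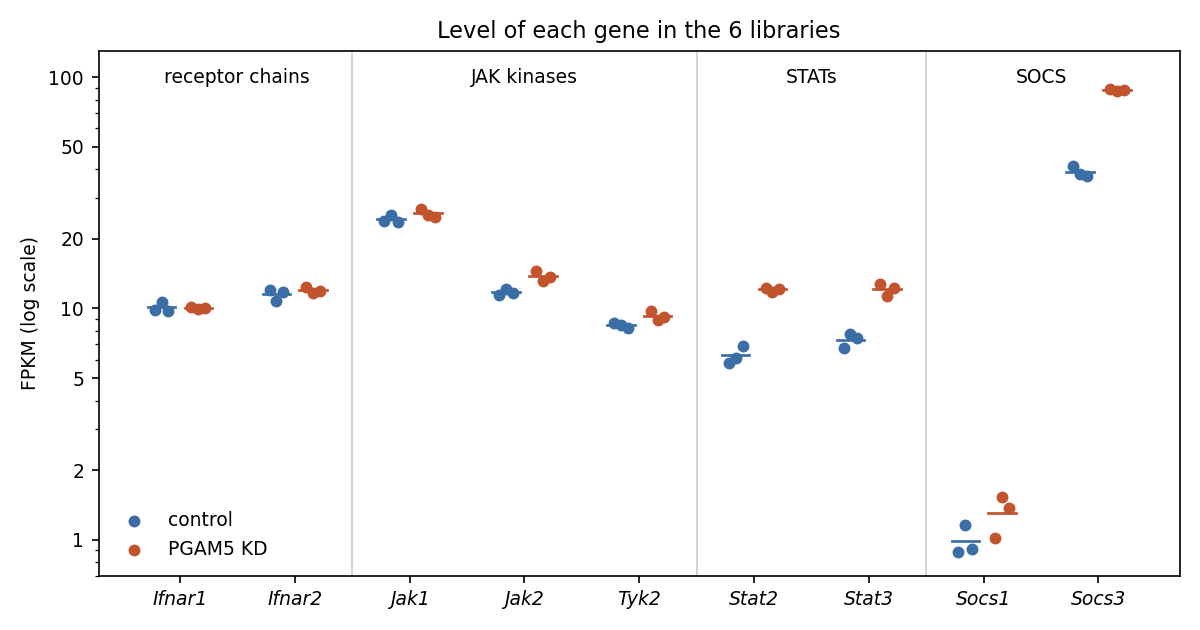
Level of each of the 9 genes in FPKM on a log scale, where the points are single libraries (blue for control, orange for PGAM5 KD) and the line is the group mean. Socs3, Stat2 and Stat3 stand apart between the groups, whereas the points of Ifnar1 and Ifnar2 overlap.

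The receptor chains did not pass the test. Ifnar1 (ENSMUSG00000022967, GRCm38 chr16:91485238-91507441, + strand) encodes the chain that carries TYK2. Its level was 9.89, 10.6 and 9.77 FPKM in control libraries and 10.2, 9.99 and 10.0 FPKM in PGAM5 KD libraries. The libraries overlapped, and the log2 fold change was -0.0030 with a 95% interval from -0.12 to 0.11 (limma adjusted p = 0.970). That interval corresponds to 0.920 to 1.08 times the control level of FPKM + 1. Ifnar2 (ENSMUSG00000022971, chr16:91372783-91405589, + strand), the chain with the higher affinity for interferon and the partner of JAK1, was at 12.0, 10.7 and 11.8 FPKM in control and at 12.4, 11.6 and 11.9 FPKM in PGAM5 KD libraries. These values overlapped as well, with a log2 fold change of 0.05 (95% interval -0.08 to 0.19, limma adjusted p = 0.516). Both genes lie near each other on chromosome 16, with Il10rb, a receptor chain described with the others, between them. Gm21970, which shares 315 bases or 9.46% of the Ifnar2 exons, was listed at 0 in every library.

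Among Jak1, Jak2 and Tyk2, Jak2 was the one that passed the test. Jak2 (ENSMUSG00000024789, chr19:29251828-29313080, + strand) serves the receptors of GM-CSF, interferon-γ and several IL-6 family cytokines. It was at 11.5, 12.1 and 11.6 FPKM in control libraries and at 14.6, 13.2 and 13.7 FPKM in PGAM5 KD libraries. No PGAM5 KD library was as low as the highest control library. The mean went from 11.7 ± 0.343 to 13.8 ± 0.707 FPKM (SD, n = 3 per group), 1.18 times the control level, with a log2 fold change of 0.22 (SE 0.052, 95% interval 0.10 to 0.34, limma adjusted p = 0.0186). The call was lost without control replicate 1 (0.20, adjusted p = 0.0581), control replicate 3 (0.21, adjusted p = 0.0568) or PGAM5 KD replicate 3 (0.22, adjusted p = 0.0529). It was also lost after scaling to TPM (0.15, adjusted p = 0.0864) and with replicate number as a block (0.22, adjusted p = 0.0547), all by limma.

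Jak1 (ENSMUSG00000028530, chr4:101152367-101265282, − strand), the kinase shared by most receptors of the pathway, was at 24.0, 25.4 and 23.7 FPKM in control and at 26.8, 25.5 and 25.0 FPKM in PGAM5 KD libraries. The groups overlapped, and the log2 fold change was 0.08 (95% interval -0.03 to 0.18, limma adjusted p = 0.240). Tyk2 (ENSMUSG00000032175, chr9:21104068-21131243, − strand), the partner of IFNAR1, was at 8.64, 8.49 and 8.23 FPKM in control and at 9.72, 8.96 and 9.16 FPKM in PGAM5 KD libraries. The groups did not overlap, yet the difference of 0.12 (95% interval -0.0005 to 0.24) had a limma adjusted p of 0.118. An antisense gene, 1700084C06Rik, covers 8.07% of the Tyk2 exons and had at most 1 fragment in a library.

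Both STAT genes rose. Stat2 (ENSMUSG00000040033, chr10:128270559-128292849, + strand), the subunit of ISGF3 whose promoter window holds the ISRE core, was at 5.83, 6.10 and 6.91 FPKM in control libraries and at 12.3, 11.8 and 12.2 FPKM in PGAM5 KD libraries. The lowest PGAM5 KD library was far above the highest control library. The mean rose from 6.28 ± 0.559 to 12.1 ± 0.225 FPKM (SD, n = 3 per group), a ratio of 1.93, and the log2 fold change was 0.85 (SE 0.065, 95% interval 0.70 to 1.00, limma adjusted p = 0.00018). Of all tested genes, 1.58% had a log2 fold change at least as high.

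Stat3 (ENSMUSG00000004040, chr11:100885098-100939540, − strand), the factor downstream of IL-6 and IL-10, was at 6.73, 7.74 and 7.45 FPKM in control and at 12.7, 11.3 and 12.3 FPKM in PGAM5 KD libraries, again without overlap. The mean rose from 7.31 ± 0.519 to 12.1 ± 0.715 FPKM (SD, n = 3 per group), a ratio of 1.66, and the log2 fold change was 0.66 (SE 0.067, 95% interval 0.50 to 0.82, limma adjusted p = 0.000601). Of all tested genes, 2.70% rose at least as much. The exons of Stat3 and Stat5a overlap by 72 bases, 0.756% of the Stat3 exons, and Stat5a was at 2.55 ± 0.412 FPKM in control and 2.38 ± 0.367 FPKM in PGAM5 KD libraries.

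The inhibitors differed in level. Socs3 (ENSMUSG00000053113, chr11:117966079-117970047, − strand), which blocks signaling from the IL-6 receptor subunit gp130 and the G-CSF receptor, was at 41.2, 38.3 and 37.2 FPKM in control libraries and at 88.5, 87.0 and 88.2 FPKM in PGAM5 KD libraries. The groups lay far apart, and the PGAM5 KD libraries lay close to each other. The mean rose from 38.9 ± 2.08 to 87.9 ± 0.806 FPKM (SD, n = 3 per group), a ratio of 2.26, with a log2 fold change of 1.16 (SE 0.043, 95% interval 1.05 to 1.26, limma adjusted p = 1.54e-05). It was the largest rise among the 9 genes, and 0.617% of all tested genes rose at least as much.

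Socs1 (ENSMUSG00000038037, chr16:10782240-10785536, − strand), the inhibitor of JAK1, JAK2 and TYK2 with 2 ISRE cores in its window, was at 0.890, 1.16 and 0.916 FPKM in control and at 1.02, 1.53 and 1.37 FPKM in PGAM5 KD libraries. The groups overlapped, since the lowest PGAM5 KD library was below the highest control library. Its log2 fold change was 0.21 with a 95% interval from -0.11 to 0.53 (limma adjusted p = 0.273), the widest interval of the 9 genes. Its mean was below 1 FPKM in control libraries, so it passed the filter through the PGAM5 KD libraries. Socs1 rested on 47 to 97 fragments per library, against 628 or more for each of the other genes. Counting error at 47 fragments comes to 14.6%, and the spread between replicates (SD over the mean) was 15.0% in control and 20.2% in PGAM5 KD libraries. On the FPKM scale itself the ratio of the means was 1.32, since the added 1 weighs most on a gene this low.

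**Figure D2:**
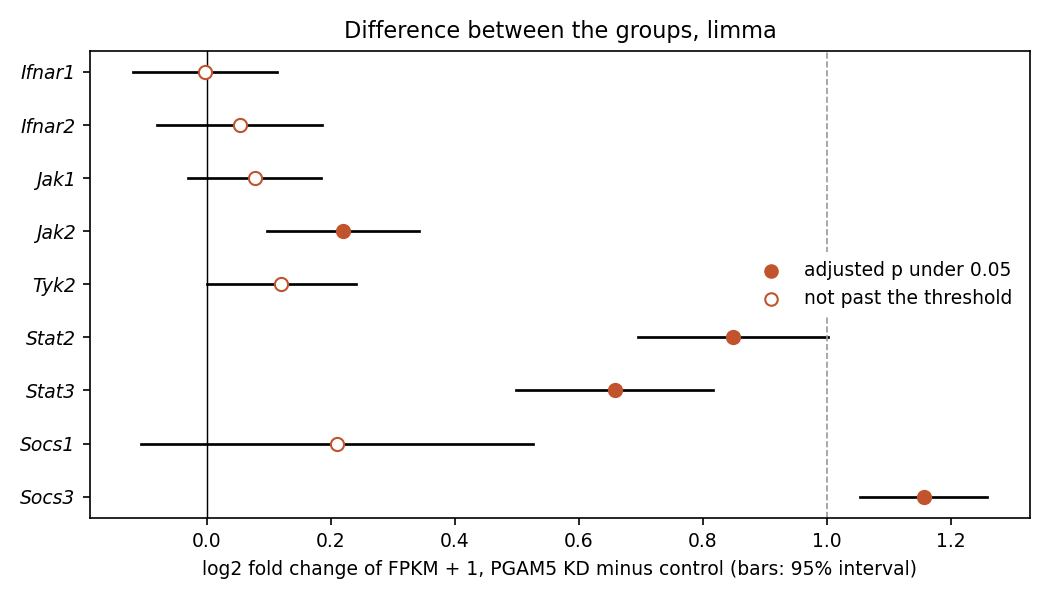
Log2 fold change of FPKM + 1 (PGAM5 KD minus control) for each gene with its 95% interval from limma. Filled points passed an adjusted p of 0.05, open points did not, and the dashed line marks a log2 fold change of 1, which only the point of Socs3 passes.

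The exact two-sided permutation test of each gene, over 3 libraries against 3, cannot go below p = 0.1. It gave 0.1 for Jak2, Tyk2, Stat2, Stat3 and Socs3, 0.2 for Jak1 and Socs1, 0.5 for Ifnar2 and 1 for Ifnar1.

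The order of the levels shifted through Stat2 and Stat3. In control libraries Socs3 stood highest at 38.9 FPKM, followed by Jak1 at 24.4, Jak2 at 11.7, Ifnar2 at 11.5, Ifnar1 at 10.1, Tyk2 at 8.45, Stat3 at 7.31, Stat2 at 6.28 and Socs1 at 0.988 FPKM. The libraries of Jak2 and Ifnar2 overlapped, as did those of Stat3 and Stat2, and every other neighbour in the order was apart. In PGAM5 KD libraries Socs3 was at 87.9, Jak1 at 25.8 and Jak2 at 13.8 FPKM, and Stat3, Stat2 and Ifnar2 followed at 12.1, 12.1 and 12.0 FPKM with overlapping libraries. Ifnar1 at 10.1, Tyk2 at 9.28 and Socs1 at 1.31 FPKM came last in that order. Both STAT genes thus stood below Ifnar1 and Tyk2 in control libraries and above them in PGAM5 KD libraries.

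Ratios of genes of the same kind (receptor chain, kinase, STAT or SOCS) were taken within each library. There a ratio of FPKM does not depend on the scaling of the library. Socs3 stood at 33.1 to 46.3 times the FPKM of Socs1 in control libraries and at 56.7 to 87.0 times in PGAM5 KD libraries. Jak2 stood at 0.477 to 0.489 times Jak1 in control and at 0.517 to 0.550 times in PGAM5 KD libraries. Stat3 went the other way relative to Stat2, from 1.08 to 1.27 times in control to 0.956 to 1.03 times in PGAM5 KD libraries. In these 3 pairs the groups did not overlap, with differences of 0.95, 0.14 and -0.19 on the log2 scale of FPKM + 1. The added 1 does not cancel, and without it these differences were 0.78, 0.16 and -0.22. For each the exact two-sided permutation p was 0.1, the smallest 3 libraries against 3 allow, and 0.167 after adjustment over the 5 pairs, so no pair passed 0.05. The ratios Ifnar2/Ifnar1 and Tyk2/Jak1 overlapped between the groups, with differences of 0.06 and 0.04 (exact permutation p = 0.8 and 0.3, adjusted 0.8 and 0.375).

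**Figure D3:**
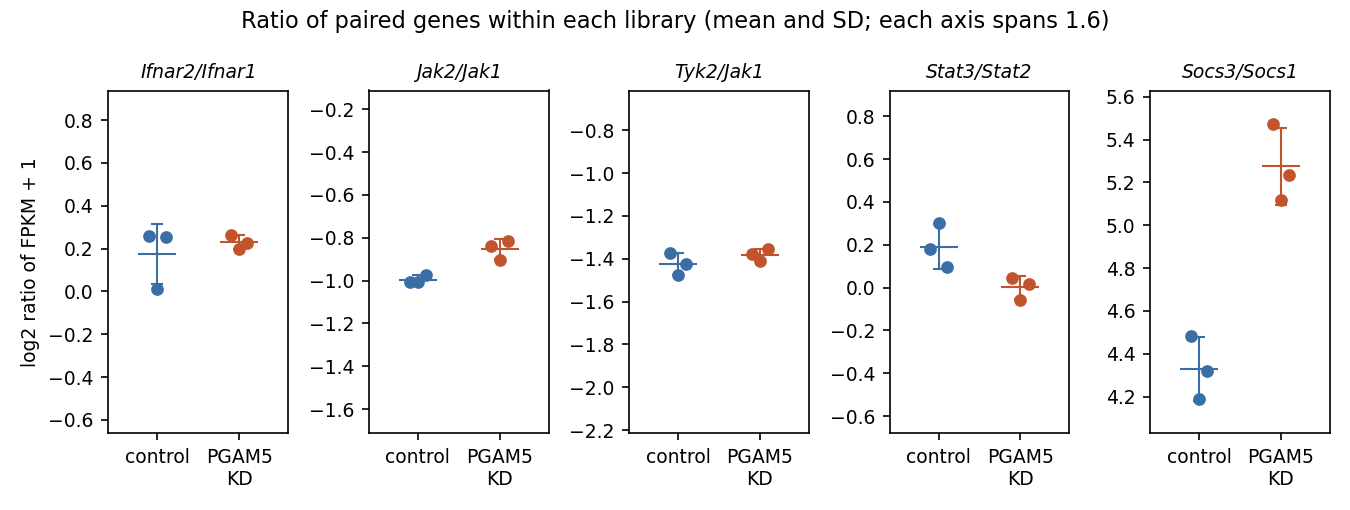
Log2 ratio of FPKM + 1 of paired genes in each library, with the mean and SD of each group and axes of equal span. Socs3/Socs1 and Jak2/Jak1 are higher and Stat3/Stat2 is lower in every PGAM5 KD library, whereas the points of Ifnar2/Ifnar1 and Tyk2/Jak1 overlap.

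The ligands that act through JAKs and STATs were counted next. Of 25 listed, 7 passed the filter on low values, of which 5 rose and none fell by limma, beside 31.7% of all tested genes past the test in either direction and 16.8% as higher. Their median log2 fold change was 0.96, beside 0.01 for all tested genes. Il6, an activator of STAT3, was at 0.340, 0.694 and 0.359 FPKM in control and at 6.75, 7.98 and 7.41 FPKM in PGAM5 KD libraries, a log2 fold change of 2.52 (SE 0.12, adjusted p = 2.54e-05). It passed the filter on low values only through the PGAM5 KD libraries, and since the added 1 weighs on so low a control level, its log2 fold change was 3.78 with a pseudocount of 0.1 and 4.01 with voom on recovered fragments. By qPCR, the paper reports that LPS induced less Il6 mRNA in PGAM5 KD cells, the opposite direction to these levels. The cause of that difference was not tested. Il27 rose from 5.57 ± 0.907 to 17.2 ± 0.815 FPKM and its partner subunit Ebi3 from 23.6 ± 0.832 to 32.9 ± 2.27 FPKM. Csf3, which encodes G-CSF, rose from 68.1 ± 2.23 to 140 ± 6.33 FPKM, and Lif from 2.95 ± 0.449 to 6.65 ± 0.684 FPKM (SD, n = 3 per group throughout). Their adjusted p-values by limma were 0.000114, 0.00138, 2.05e-05 and 0.00085. The remaining tested genes, Osm and Il10, had log2 fold changes of 0.28 and 0.09 (limma adjusted p = 0.0769 and 0.673).

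Ifnb1, the interferon of the list with a measured level, was named for its role after its values were seen. It was below the filter, at 2.06, 0.661 and 0.615 FPKM in control and 0.425, 0.514 and 1.26 FPKM in PGAM5 KD libraries. The groups overlapped, and each group held 1 library above the others. These values rest on 28, 10 and 9 fragments in control and 7, 7 and 23 fragments in PGAM5 KD libraries. Ifna1, Ifna2, Ifna4, Ifna5, Ifne, Ifng, Ifnl2 and Ifnl3 were listed at 0 in every library.

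Other receptor chains moved in both directions. Of 22 listed and 13 tested, 4 were higher and 3 lower, with a median log2 fold change of -0.02. The 53.8% of tested chains past the test compare with 31.7% of all tested genes. Lifr and Il27ra, receptor chains for LIF and IL-27, were below the filter. Lifr averaged 0.005 FPKM in control and 0 FPKM in PGAM5 KD libraries, and Il27ra 0.054 and 0.056 FPKM. Osmr was at 0 in every library. Whether LIF or IL-27 acts on these cells was not tested. The count of lower chains was 1 without control replicate 1 or 3 or PGAM5 KD replicate 1 and with no filter on low values, and 5 with voom on recovered fragments. Il13ra1, a chain of the IL-13 receptor, rose by 0.92 on the log2 scale (limma adjusted p = 0.00257). Il10ra, the ligand-binding chain for IL-10, rose from 5.13 ± 0.781 to 8.59 ± 0.524 FPKM, while Il10rb, the chain it pairs with, fell from 7.83 ± 0.258 to 5.90 ± 0.499 FPKM (limma adjusted p = 0.00364 and 0.00799). Il2rg, the common γ chain, rose by 0.48 (adjusted p = 0.00213). Il6st, which encodes gp130, fell from 5.79 ± 0.175 to 4.86 ± 0.260 FPKM (limma adjusted p = 0.0352). Il6ra had a log2 fold change of -0.21 and did not pass the test (limma adjusted p = 0.0577). Where the count of lower chains was 1, that chain was Il10rb. Csf2rb2, a receptor chain related to that of GM-CSF, fell by 0.45 (adjusted p = 0.0303), which missed the threshold without control replicate 1 or 3 or PGAM5 KD replicate 1 or 3 (-0.39, -0.45, -0.36 and -0.43, adjusted p from 0.0744 to 0.0924) and when low genes were kept (adjusted p = 0.0894).

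Other JAK, STAT and ISGF3 genes were read from the same fit. Irf9, the DNA-binding subunit of ISGF3, was at 12.4 ± 0.851 and 12.7 ± 0.495 FPKM with overlapping libraries (log2 fold change 0.02, limma adjusted p = 0.796) and was named for its role after its values were seen. Jak3, the kinase of the common γ chain, rose by 0.32 (adjusted p = 0.0369). That call was lost when any 1 of the 6 libraries was left out (0.25 to 0.37, adjusted p from 0.0511 to 0.0998), after scaling to TPM (0.33, adjusted p = 0.0709) and when low genes were kept (adjusted p = 0.103). Stat6, the STAT of IL-4, fell from 41.8 ± 0.881 to 37.6 ± 1.31 FPKM (adjusted p = 0.026), a call lost without control replicate 2 or 3 or PGAM5 KD replicate 1 or 2 (-0.14, -0.15, -0.13 and -0.15, adjusted p from 0.0624 to 0.0797) and without the mean-variance trend (adjusted p = 0.0543).

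Among other SOCS genes and negative regulators, 22 listed and 20 tested, 4 were higher and 3 lower, with a median of 0.07. That is 35% of the tested members, near the 31.7% over all tested genes. Usp18, which holds IFNAR2 away from JAK1, rose from 29.4 ± 1.08 to 62.9 ± 3.09 FPKM, with a log2 fold change of 1.07 (SE 0.048, limma adjusted p = 2.45e-05). Socs4 was the one other SOCS gene past the test and fell from 8.69 ± 0.377 to 6.28 ± 0.146 FPKM (adjusted p = 0.0016), while Socs5, Socs6 and Socs7 did not pass it, with log2 fold changes from -0.02 to 0.10. Rnf7, a subunit of the ubiquitin ligases that SOCS proteins join, rose by 0.51 (adjusted p = 0.000165), and Cbl, another ubiquitin ligase, fell by 0.36 on the log2 scale (adjusted p = 0.00185). Ptpn2, a phosphatase that acts on JAK1 and STATs, rose by 0.25 (adjusted p = 0.0221) and missed the threshold without control replicate 1 or PGAM5 KD replicate 1 or 3 (0.19, 0.21 and 0.26, adjusted p from 0.0523 to 0.0584). It also missed it after scaling to TPM (0.18, adjusted p = 0.0838) and when low genes were kept (adjusted p = 0.0511).

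**Figure D4:**
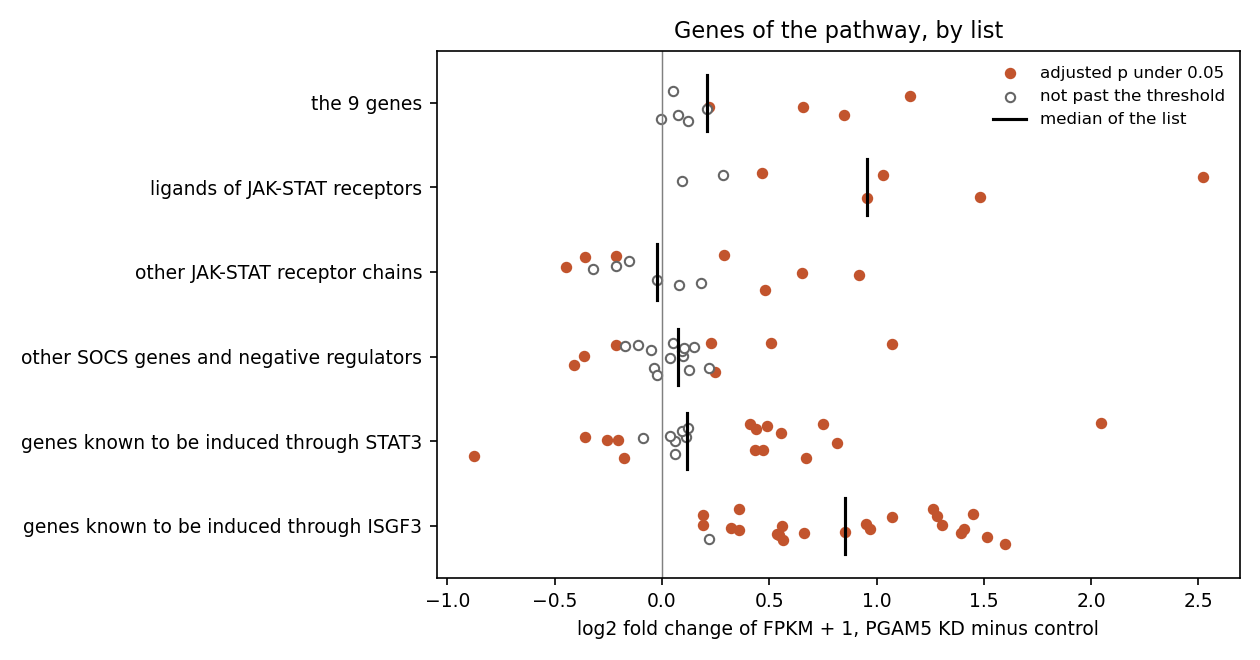
Log2 fold change of FPKM + 1 (PGAM5 KD minus control) of the tested genes of the pathway, 1 line per list, with filled points past an adjusted p of 0.05, open points not past it, and a bar at the median of the list. Ligands and ISGF3-induced genes lie to the right of 0, and the other lists reach both sides.

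Genes known to be induced through the STATs were the last group. Like those above, these lists were written with earlier results of these data known. Their counts describe the listed genes and are not independent support. Of 25 genes induced through ISGF3, 23 were tested, 22 rose and none fell, while 16.8% of all tested genes rose, and the median log2 fold change was 0.85. Of the 22, Oasl2 and Zbp1 passed the filter only through the PGAM5 KD libraries. Irf7, a transcription factor of the interferon genes, rose from 15.2 ± 0.698 to 48.1 ± 2.05 FPKM, and the antiviral genes Rsad2 and Ifit1 rose by 1.51 and 1.45 on the log2 scale. Ifi44l and Ifi44 rose by 1.41 and 1.40, and the limma adjusted p-values of the 5 genes were at most 2.46e-05. The list also holds Usp18. Of 24 genes induced through STAT3, 22 were tested, 10 rose and 5 fell, with a median of 0.12, so that 68.2% passed the test beside 31.7% of all tested genes. Batf, a transcription factor, rose from 1.62 ± 0.0999 to 9.85 ± 1.10 FPKM (log2 fold change 2.04, SE 0.089, adjusted p = 2.27e-05). Nfil3, Cebpd and the kinase gene Pim1 rose by 0.81, 0.75 and 0.67, whereas Fos fell from 32.8 ± 0.924 to 17.4 ± 0.903 FPKM (adjusted p = 4.74e-05). Both lists hold genes that other factors, NF-κB among them, also induce after LPS.

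The genes whose pattern over the 6 libraries was most like that of Socs3 were Cxcl2, Apol9a and Endod1. The measure was the root mean square difference of log2(FPKM + 1) after centring each gene on its own mean, and it was 0.0433, 0.0543 and 0.0549. Cxcl2, a neutrophil chemokine, was at 154, 153 and 145 FPKM in control and at 332, 342 and 321 FPKM in PGAM5 KD libraries. Their log2 fold changes were 1.13, 1.18 and 1.11, beside 1.16 for Socs3. The measure includes the difference between the groups, so similar log2 fold changes follow from the choice of genes.

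**Figure D5:**
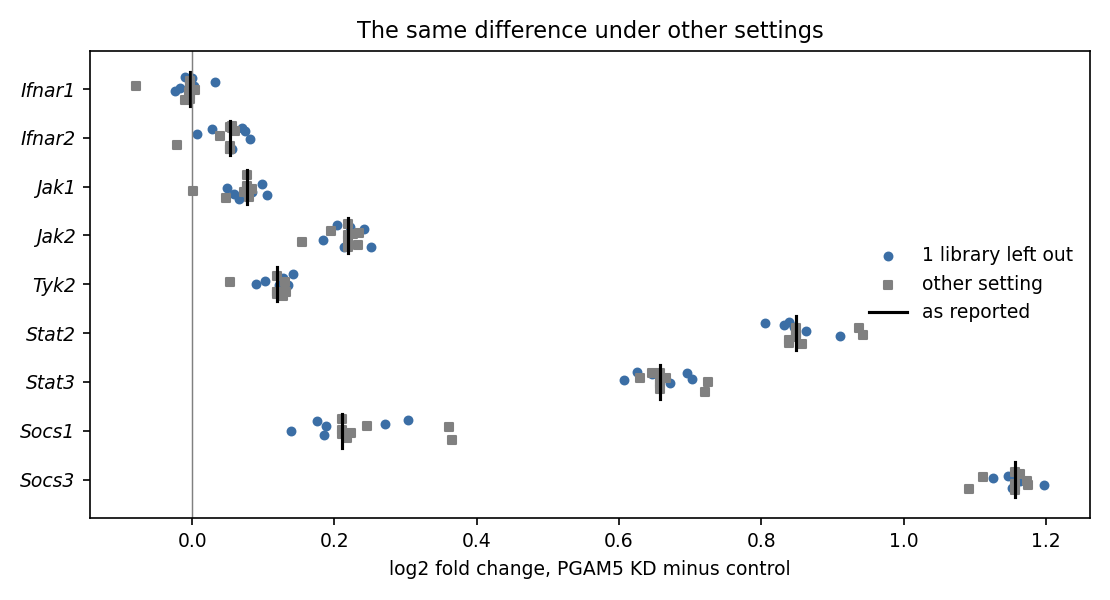
Log2 fold change of each of the 9 genes (PGAM5 KD minus control) as reported (bar), with 1 library left out (circles) and under the other settings (squares). Stat2, Stat3 and Socs3 stay at 0.61 or above, and the points of Ifnar1 and Ifnar2 lie on both sides of 0.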

How the data were processed

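RNA-seq of 6 libraries was used. The authors deposited FPKM per gene for each library. Per the labels, reads were processed with HISAT2 2.0.5 and featureCounts 1.5.0-p3 on mm10, and the annotation release and strand setting are not given in the sources used here. Of 54532 gene identifiers, 54495 were in GENCODE M21, which gave symbols, coordinates and exon lengths. FPKM times exon length fell within 0.01 of whole fragments for 96.8% to 97.1% of values under 1000 fragments, which gave the depth, 18163465 to 24388917 fragments.

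The 10540 genes that averaged 1 FPKM or more were tested on log2(FPKM + 1), a scale that understates changes of low genes, with limma 3.58.1 (R 4.3.3; eBayes with trend, two-sided, Benjamini-Hochberg). Fold thresholds followed the methods of the study (adjusted p under 0.05, absolute log2 fold change above 1). Groups and replicate numbers came from the labels. Exact permutation tests were run for single genes and ratios. Same-numbered libraries did not deviate together (correlations -0.020, 0.016 and -0.052). Replicates differed beyond counting noise (chi-square per degree of freedom 4.82 to 8.16). Promoters were read from RefSeq windows. By blastn, Gm21970 matched 315 bases of Ifnar2, parts of retained introns matched Ifnar1 and Stat3, and the transcripts of the other genes had no near-identical copy. Figures and tables used Python 3.11.15, pandas 2.3.3, scipy 1.17.1 and matplotlib 3.10.9.

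The genes named were the 9, Pgam5, up to 5 genes per list past the test by size, and the 3 nearest to Socs3. Other list genes were named after their values were seen. A result on the list of other JAK, STAT and ISGF3 genes is not reported here. The 9 genes and the lists were chosen with earlier results of these data known. Alternatives were a pseudocount of 0.1, no filter, a mean FPKM of at least 5, TPM, quantile and median scaling, no trend, a replicate block, leaving out each library, and voom on recovered fragments. In simulated data with the same group sizes (10327 genes), the fit recovered 12 of 49 genes changed 1.2-fold. It recovered 45 of 49 changed 1.5-fold and 49 of 49 changed 2-fold, with 10 false calls. The simulation gave every gene the same dispersion and changed far fewer genes than passed the test in the data. Changed genes were drawn from those with more fragments, so these shares need not hold for the real libraries.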

Additional observations from a re-analysis of the deposited data

How the results depend on the processing

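The rises of Stat2 (0.80 to 0.94), Stat3 (0.61 to 0.72) and Socs3 (1.09 or above) kept their direction and stayed past the threshold under all 15 alternatives (limma adjusted p at most 0.00229, 0.00648 and 0.000661), and Jak1 and Tyk2 stayed on the other side of it. Jak2 missed it after scaling to TPM (0.15, adjusted p = 0.0864) and with a replicate block (0.22, adjusted p = 0.0547), and ran from 0.18 to 0.25 with 1 library left out. The replicate block, for numbers that did not pair the libraries, gave 2652 genes past the test in place of 3346, and Jak2 was the one of the 9 genes that it moved across the threshold. With it, Ptpn2, Csf2rb2 and Jak3 missed the threshold as well (adjusted p = 0.0620, 0.0790 and 0.0592), and the count of lower receptor chains was 1. Ifnar1, near 0, changed sign when libraries were centred on their median (0.0044) and ran from -0.024 to 0.032 with 1 library left out (0.0022 without PGAM5 KD replicate 2). Ifnar2 was at -0.021 after scaling to TPM, which shifted the median of all genes by -0.07, and the Ifnar2/Ifnar1 difference ran from -0.025 (without control replicate 2) to 0.097 (without control replicate 1). Genes higher past the test went from 1771 to 1088 with TPM. Genes that also had a log2 fold change above 1 went from 83 to 154 with a pseudocount of 0.1, 49 at a mean FPKM of at least 5 and 170 with voom. Socs1 was not tested at that filter, and ran from 0.14 to 0.37 elsewhere (adjusted p from 0.152 to 0.552). The cause of these moves was not tested. Socs1 and Ifnb1 rest on few fragments, and Ifnar2, Tyk2 and Stat3 share part of their exons with other genes, as given above.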
